A study of Mus musculus with 13 samples.

Results

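The genes described here are those of the DNA replication fork: the polymerases and primase, the sliding clamp and its loader, the proteins that mark and open origins, and the factors that join strands, repackage and check the copied DNA. They were chosen by name, as a list of 42 genes under a rule that uses no measured value, and each was read from the probe sets whose platform annotation names only that gene. Of the 42, 41 had such a probe set, with 83 probe sets between them, out of 18193 genes and 45037 probe sets in all. Chaf1a was not analysed here. The cells were C2C12, an established mouse line of skeletal muscle precursors (myoblasts), starved in low serum for a day and then given serum again, in parallel flasks. The study searched for genes with oscillating expression, in work on somite formation. Total RNA from 1 flask per time was hybridised to 1 Affymetrix array, every 0.5 h, and for the 13 arrays analysed here the labels name no other treatment. They were grouped by labelled time into a late window (4.5 to 6.0 h, 4 arrays), a middle window (2.5 to 4.0 h, 4 arrays), an early window (0.5 to 2.0 h, 4 arrays) and the starved cells at 0 h (1 array).

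When a resting cell is given serum it passes through G1 and then copies its DNA once. The origin recognition complex marks the start sites, the helicase is loaded there and later switched on by a kinase, and polymerases, held to DNA by a ring-shaped clamp, copy the opened strands. Many genes of this machinery are known targets of E2F transcription factors, which become active late in G1.

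The deposited values are ratios to a reference of each probe set, so a value above 1 on an array means more signal there than in that gene's reference, and levels cannot be compared between genes. A gene's value is the mean log2 ratio over its probe sets, and a change is the difference between the means of 2 windows on the log2 scale, given ± its standard error (SE). Changes were tested with limma over all 18193 genes, with Benjamini-Hochberg adjustment, and a gene is said to have risen or fallen where the adjusted p was under 0.05. No time point was replicated, so the p-values measure the spread between neighbouring times in a window, technical spread and drift within the window included. The number of arrays limits the precision. The spread left within windows, as a residual SD on the log2 scale, had a median of 0.131 over the 41 genes and 0.102 over all genes. The median ratio over all genes lay between 0.977 and 1.00 on every array. Because ratios hold no levels, the myoblast markers can show change and cannot show that the cells were myoblasts. In RNA from whole cultures, a larger share of cells that express a gene and more RNA of it per cell cannot be told apart.

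In the late window, 21 of the 41 replication genes had risen against the early window and 0 had fallen. The background for these counts is 11.7% of all genes higher and 9.29% lower. The median change over the 41 genes was 0.31, against 0.02 over all genes, and it ran from -0.10 for Rpa3 to 1.03 for Rpa2. At an unadjusted p under 0.05, 27 of the 41 passed in limma, all of them higher, against 31.6% of all genes in either direction. Tested against a minimum log2 change of 0.5, 0 of the 41 passed, where 46 of all genes did in the higher direction. The single-strand binding gene Rpa2, the mismatch repair gene Msh6 and the origin genes Orc2 and Orc5 changed most. All late arrays lay above all early arrays for 22 of the 41 genes (53.7%), where 14.1% of all genes had this order. The 6.0 h array was the highest of the 13 for 31 of the 41, where 13.9% of all genes peaked there.

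Before the rise, many of these genes had their lowest array. It lay in the middle window for 31 of the 41 genes, against 36.7% of all genes, and it was the 2.5 h array for 18 of the 41, against 11.5% of all genes. A gene that is high late cannot be lowest there, so these shares depend in part on the rise. All early arrays lay above all middle arrays for 11 of the 41 genes (26.8%), against 15.0% of all genes. The median ratio of the 41 genes was 0.957 at 0 h. It was 0.975, 0.986, 0.953 and 0.915 from 0.5 to 2.0 h, 0.832, 0.869, 0.919 and 0.941 from 2.5 to 4.0 h, and 1.045, 1.07, 1.17 and 1.26 from 4.5 to 6.0 h. At 2.5 h 40 of the 41 genes were below a ratio of 1 and 0 above it. At 6.0 h 40 were above 1, and Orc3 stood at 0.990. The median log2 ratio over all genes was -0.05 at 2.5 h, its lowest on any array, and 0 at 6.0 h. The share of all genes below or above 1 was not counted. For all but 5 of the 83 probe sets, a ratio of 1 lay near the middle of the probe set's own values. The counts at 2.5 and 6.0 h are therefore not independent.

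**Figure D1:**
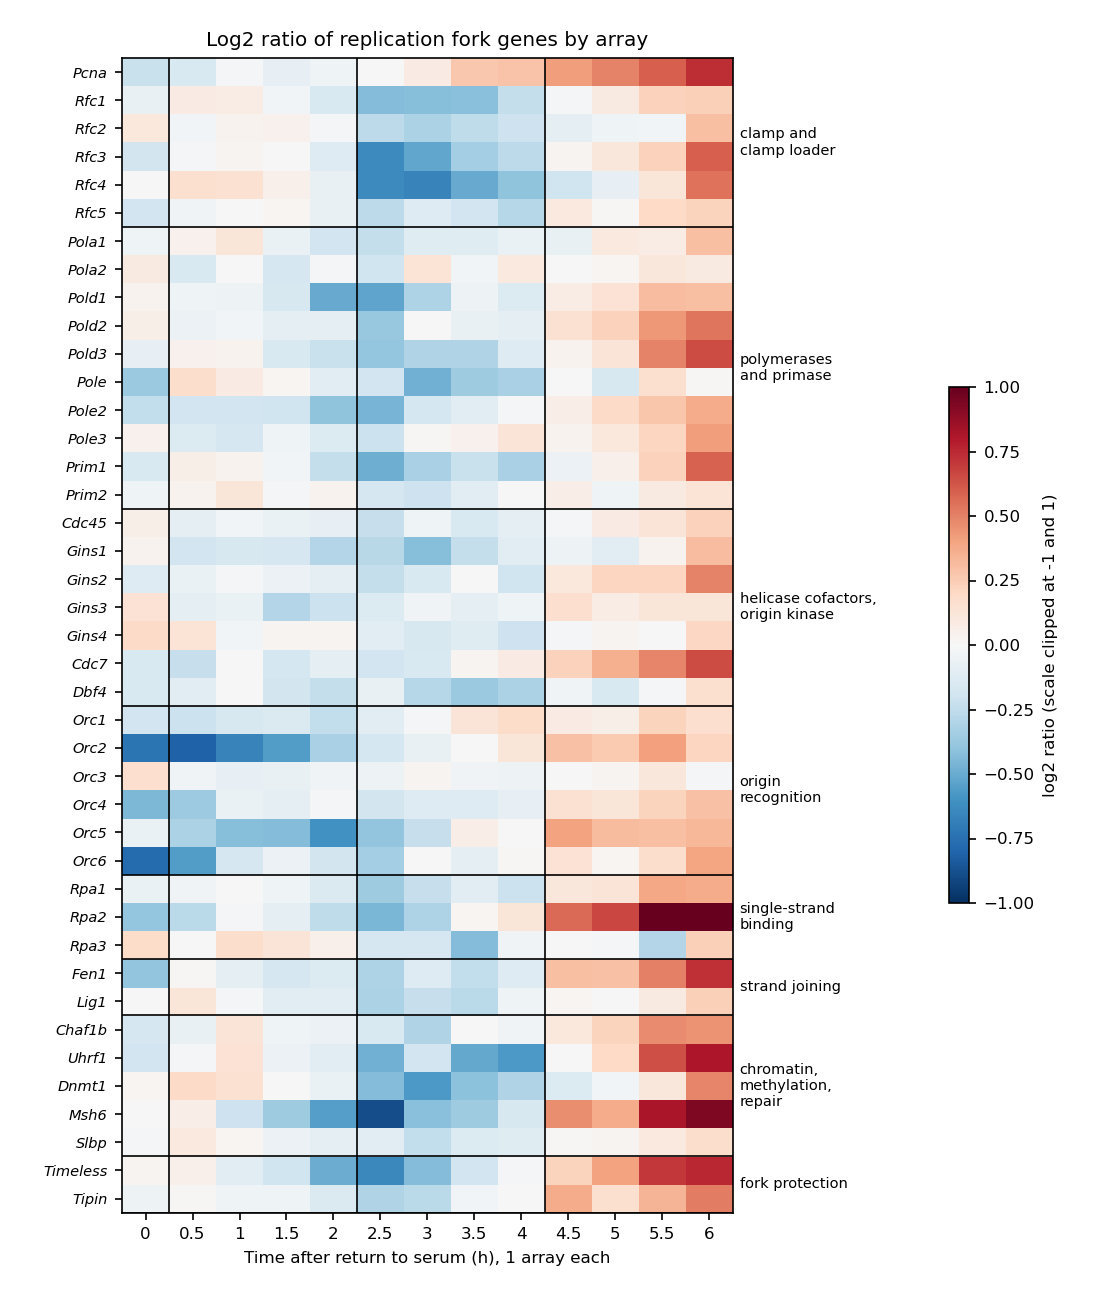
Log2 ratio of the 41 measured replication genes (rows, grouped by role) on each of the 13 arrays (columns, hours after return to serum). Red is above the gene's reference and blue below it, the colour scale stops at -1 and 1, and vertical lines part the 0 h array and the early, middle and late windows. Blue is most frequent at 2.5 to 4.0 h, and red in the last columns, where 31 of the 41 genes have their highest array at 6.0 h.

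In the middle window against the early window, 4 of the 41 genes had risen (background 7.74% of all genes) and 9 had fallen (background 14.4%), with a median change of -0.11. From the middle to the late window, 32 of the 41 rose (background 10.3%) and 0 fell (background 2.06%), with a median change of 0.40 against 0.02 over all genes. All 41 changes from middle to late were above 0, as were 10435 of the 18193 changes of all genes. An unadjusted p under 0.05 in limma was found for 37 of the 41, against 27.4% of all genes. These comparisons share arrays: the middle window stands in both, so a gene that is low there enters both with opposite signs. Without the 5.5 h array 23 genes rose from middle to late (6.16% of all genes), and without the 6.0 h array 24 (5.25% of all genes). The calls of Cdc45, Gins1, Gins3, Gins4, Lig1, Orc2, Pold1 and Slbp were lost both times, and those of Gins1, Gins3 and Gins4 also after centring each array on its median or quantile normalization.

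The array controls for 18S ribosomal RNA moved with the last 3 arrays. A control probe set on the array for the 5′ end of 18S ribosomal RNA had ratios of 0.889 at 4.5 h and of 3.92, 2.67 and 5.24 at 5.0, 5.5 and 6.0 h. It lay between 0.397 and 2.14 from 2.5 to 4.0 h, between 0.411 and 1.40 from 0.5 to 2.0 h, and at 0.849 at 0 h. The control set for the 3′ end stood at 1.50, 1.49 and 1.57 on the last 3 arrays and at 1.11 or less before. The remaining 18S control set stood at 1.40, 1.27 and 1.39 there and at 1.085 or less before. With the 4.5 h array alone as the late window, 1 array in place of 4, 4 of the 41 genes had risen against the early window (Orc2, Orc5, Pcna and Gins3), where 3.19% of all genes were higher. With that array alone the median change was 0.12, and against the middle window 0 of the 41 genes and 0 of all genes passed in limma (1739 of all genes at an unadjusted p under 0.05), with a median change of 0.28. The 4.5 h array lay above every early array for 23 of the 41 genes, against 32.1% of all genes. The part of the 18S difference in the late results was not tested.

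**Figure D2:**
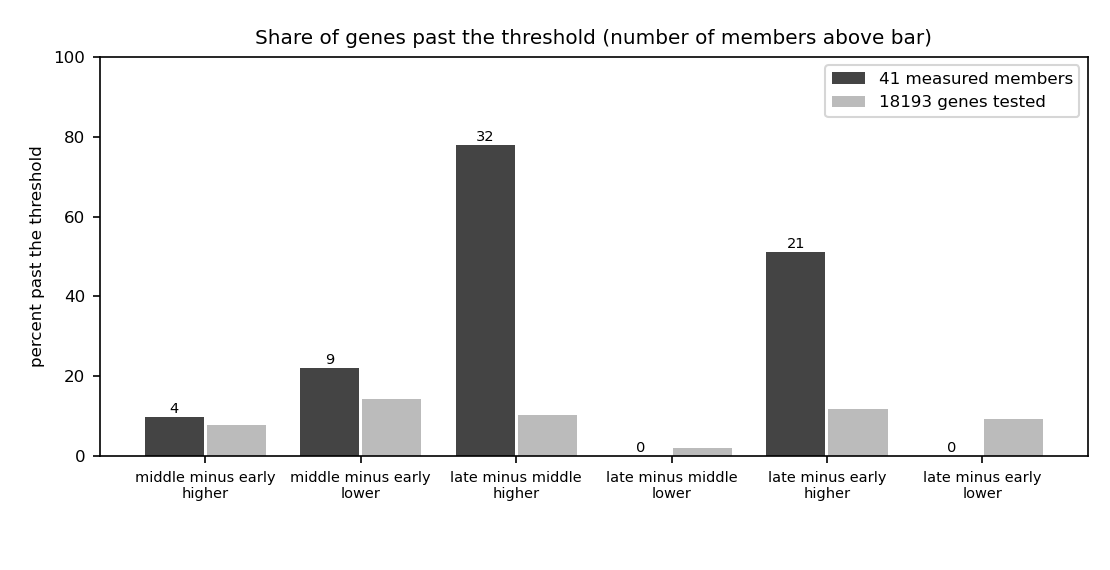
Percent of genes past the threshold in each window comparison and direction, for the 41 replication genes (dark bars, with the number of genes above each bar) and for all 18193 genes (light bars). The bars differ most for late minus middle, higher, with 32 of the 41 genes against 10.3% of all genes, and for late minus early, higher, with 21 of the 41 against 11.7%.

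RefSeq promoter sequences (build GRCm38.p6, 300 bases each around the transcription start) were at hand for 34 of the 41 genes. An E2F-type word, TTTCCCGC, TTTGGCGC, TTTGCCGC or TTTCGCGC on either strand, stood in the promoters of 12 of the 34 genes (35.3%), against 2.6% of the 27025 genes of the promoter table. It stood in 6 of the 19 genes that rose late against early (31.6%) and in 6 of the 15 that did not pass (40.0%). The median change late minus early was 0.31 over the 12 genes with a match and 0.32 over the 22 without. The letters CCAAT, read on both strands, stood in 19 of 34 (55.9%, all genes 41.1%), and TTTGAA, a word of the CHR type, in 7 of 34 (20.6%, all genes 20.2%). None of the words searched contains another. A match describes letters and is not a measured binding site. The promoters of the 4 genes with the largest rise among those with an E2F-type match are printed with the match in capitals, and with them that of Rfc4, the gene with the smallest change among those with a promoter. They belong to Msh6 (chr17:87974800-87975099, plus strand), Pole2 (chr12:69228141-69228440, minus strand), Pold3 (chr7:100121453-100121752, minus strand), Pold1 (chr7:44548766-44549065, minus strand) and Rfc4 (chr16:23127681-23127980, minus strand).
Msh6: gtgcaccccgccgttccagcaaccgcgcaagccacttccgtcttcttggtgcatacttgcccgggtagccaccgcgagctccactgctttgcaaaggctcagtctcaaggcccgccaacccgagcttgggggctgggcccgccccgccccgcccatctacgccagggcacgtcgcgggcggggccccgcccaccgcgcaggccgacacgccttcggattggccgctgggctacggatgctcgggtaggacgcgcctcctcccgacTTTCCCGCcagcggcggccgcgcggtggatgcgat
Pole2: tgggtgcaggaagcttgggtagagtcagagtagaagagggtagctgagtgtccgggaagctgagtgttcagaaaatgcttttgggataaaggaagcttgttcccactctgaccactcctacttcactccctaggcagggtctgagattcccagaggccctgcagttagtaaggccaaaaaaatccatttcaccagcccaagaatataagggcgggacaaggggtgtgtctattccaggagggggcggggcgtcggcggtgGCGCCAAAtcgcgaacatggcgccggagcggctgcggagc
Pold3: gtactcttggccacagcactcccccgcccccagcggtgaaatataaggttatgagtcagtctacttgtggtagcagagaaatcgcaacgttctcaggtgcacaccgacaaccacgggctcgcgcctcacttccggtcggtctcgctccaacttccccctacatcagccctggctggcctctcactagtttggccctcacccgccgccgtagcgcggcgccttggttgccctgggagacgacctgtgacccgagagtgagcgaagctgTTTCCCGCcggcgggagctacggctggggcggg
Pold1: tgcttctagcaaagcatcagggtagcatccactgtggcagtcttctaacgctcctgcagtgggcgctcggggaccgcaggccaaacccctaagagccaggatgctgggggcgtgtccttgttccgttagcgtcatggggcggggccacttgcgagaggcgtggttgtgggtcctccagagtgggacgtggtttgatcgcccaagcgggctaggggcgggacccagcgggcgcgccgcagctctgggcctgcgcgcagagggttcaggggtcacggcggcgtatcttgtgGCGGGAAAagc
Rfc4: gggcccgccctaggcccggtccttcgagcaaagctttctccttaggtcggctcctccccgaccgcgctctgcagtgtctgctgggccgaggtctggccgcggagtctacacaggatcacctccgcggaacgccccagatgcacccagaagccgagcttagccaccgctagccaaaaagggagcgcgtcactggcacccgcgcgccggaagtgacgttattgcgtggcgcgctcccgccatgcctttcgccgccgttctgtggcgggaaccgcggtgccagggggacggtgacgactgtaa
Counted from 1 at the transcription start, the match lies at 16 to 23 in Msh6, 11 to 18 in Pole2, 18 to 25 in Pold3 and 40 to 47 in Pold1. It reads along the gene in Msh6 and Pold3 and on the opposite strand in Pole2 and Pold1. In the Rfc4 window none of the 4 words was found.

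The sliding clamp and its loader took different courses. Pcna, the ring that tethers polymerases to DNA, had a ratio of 0.858 at 0 h, then 0.898, 0.985, 0.947 and 0.973 from 0.5 to 2.0 h, 1.00, 1.06, 1.205 and 1.22 from 2.5 to 4.0 h, then 1.34, 1.41, 1.51 and 1.67 from 4.5 to 6.0 h. From 2.0 h on, every array was above the one before it, and the windows do not overlap. Pcna rose late against early by 0.64 ± 0.08 (adjusted p = 7.22e-05), a 1.55-fold change. It had already risen in the middle window, by 0.23 ± 0.08 (adjusted p = 0.0471), a call that is lost when any 1 of 9 arrays is left out, each of the 4 early arrays among them.

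The 5 loader subunits, Rfc1 to Rfc5, which open the clamp and close it around DNA, all fell in the middle window and all rose from there to the late window. Rfc4 fell most. Its ratio was 1.00 at 0 h, 1.12, 1.11, 1.035 and 0.948 from 0.5 to 2.0 h, 0.642, 0.629, 0.7035 and 0.756 from 2.5 to 4.0 h, and 0.8695, 0.946, 1.09 and 1.46 from 4.5 to 6.0 h (shown in full because of its middle low, a choice made after its values were seen). Every middle array of Rfc4 lay below every early and every late array, while the late arrays spanned the early ones. Its change was -0.63 ± 0.13 middle against early (adjusted p = 0.00339) and 0.65 ± 0.13 late against middle (adjusted p = 0.00576). The other loader subunits changed by -0.19 for Rfc5 to -0.41 for Rfc3 middle against early, and by 0.30 for Rfc2 to 0.68 for Rfc3 late against middle. Late against early, none of the 5 passed: the changes ran from 0.02 for Rfc4 to 0.27 ± 0.11 for Rfc3 (adjusted p = 0.0991). The call of Rfc5 in the middle window is lost without the 1.0, 1.5, 2.5, 3.5 or 4.0 h array and after quantile normalization. With 1 probe set per gene the falls of Rfc1, Rfc2 and Rfc5 did not pass. Rfc5 has only 1 probe set, so its values were the same there, and only the limma estimate of spread and the adjustment over all genes differed. The late against middle rise of Rfc2 is lost with 1 probe set per gene and without the 3.0 h array.

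**Figure D3:**
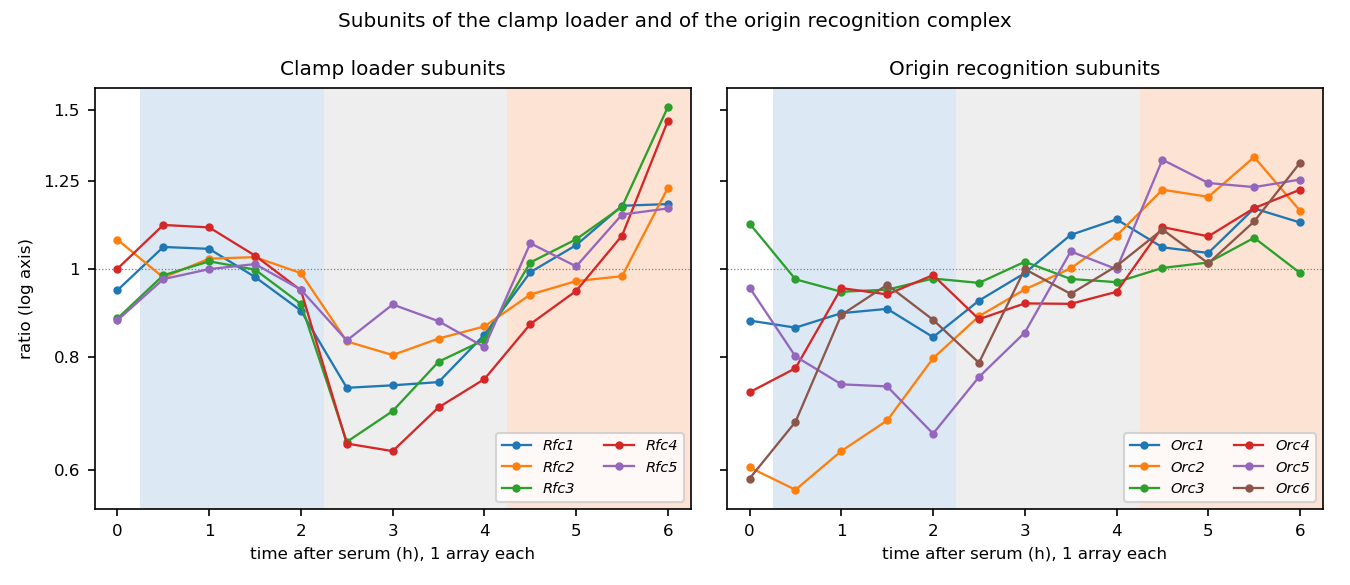
Ratio (log axis) of the 5 clamp loader subunits (left) and the 6 origin recognition subunits (right) against hours after return to serum, 1 array per point, with the early, middle and late windows shaded in blue, grey and orange. The loader subunits dip together between 2.5 and 4.0 h, with Rfc4 down to 0.629, while Orc2 and Orc6 climb from 0.604 and 0.587 at 0 h and Orc3 stays between 0.944 and 1.12.

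Among the polymerases, 3 delta genes (Pold1, Pold2 and Pold3) and 2 accessory genes of epsilon rose late against early, and the genes of polymerase alpha and its primase did not pass. Of the 10 genes, 5 rose late against early, 1 fell in the middle window and 6 rose from middle to late. For DNA polymerase delta, which extends the lagging strand, the catalytic gene Pold1 rose by 0.40 ± 0.11 (adjusted p = 0.0205) late against early. Its accessory genes Pold2 and Pold3 rose by 0.41 ± 0.09 and 0.40 ± 0.12 (adjusted p = 0.00448 and 0.0251). Pold4, the small delta subunit gene, which is not on the list of 42, did not pass (0.17 ± 0.11, adjusted p = 0.291). The calls of Pold1 and Pold3 are lost without the 2.0, 5.5 or 6.0 h array, and that of Pold3 also without the 1.5 h array.

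DNA polymerase epsilon copies the leading strand. The accessory gene Pole2 had a ratio of 0.841 at 0 h, 0.877, 0.875, 0.873 and 0.757 from 0.5 to 2.0 h, 0.723, 0.884, 0.927 and 0.990 from 2.5 to 4.0 h, and 1.045, 1.14, 1.21 and 1.295 from 4.5 to 6.0 h. From the low at 2.5 h, every array was above the one before it. Pole2 rose by 0.47 ± 0.09 late against early (adjusted p = 0.0022), and the histone-fold subunit gene Pole3 by 0.31 ± 0.08 (adjusted p = 0.0161, lost without the 6.0 h array). The catalytic gene Pole fell in the middle window by 0.38 on the log2 scale (SE 0.08, adjusted p = 0.00499), rose from there by 0.34 ± 0.08 (adjusted p = 0.0157), and its late minus early change was -0.04 ± 0.08. The highest array of Pole was that of 0.5 h, at a ratio of 1.13, and its 0 h array was at 0.775.

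Polymerase alpha and primase make the RNA-DNA primer that starts each new strand. The genes Pola1 and Pola2 of the polymerase and Prim2 of the primase passed in none of the 3 window comparisons, with late minus early changes of 0.12 ± 0.08, 0.14 ± 0.07 and 0.02 ± 0.06. Single probe sets of Pola1 and Pola2 did pass late against early, at 0.28 ± 0.09 and 0.31 ± 0.09 (adjusted p = 0.0349 and 0.0288), and that of Pola2 also late against middle. Prim1, the catalytic primase gene, rose from middle to late by 0.55 ± 0.12 (adjusted p = 0.00905) and reached a ratio of 1.51 at 6.0 h from a low of 0.711 at 2.5 h. Late against early its change of 0.25 ± 0.12 did not pass (adjusted p = 0.158).

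The helicase cofactors and the kinase that switches the helicase on rose in part: 3 of 7 late against early and 6 of 7 late against middle. Cdc7, the kinase, had a ratio of 0.902 at 0 h, 0.8535, 0.996, 0.8865 and 0.939 from 0.5 to 2.0 h, 0.874, 0.902, 1.02 and 1.06 from 2.5 to 4.0 h, and 1.18, 1.28, 1.40 and 1.57 from 4.5 to 6.0 h. All late arrays lay above all others, and the early and middle arrays overlapped. Cdc7 rose by 0.56 ± 0.09 late against early (adjusted p = 0.000491). Its 2 probe sets differed, at 0.95 and 0.16, and only the larger change passed on its own. Dbf4, the subunit that Cdc7 needs for activity, passed in none of the 3 window comparisons and changed by 0.12 ± 0.08 late against early. Its 2 probe sets parted. One fell in the middle window (-0.43 ± 0.10, adjusted p = 0.00729) and rose from there (0.59 ± 0.10, adjusted p = 0.00267). The other changed by 0.18 ± 0.08 and -0.09 ± 0.08 without passing. This other probe set may have been scaled otherwise, as described under data processing, and the value of Dbf4 is the mean of both.

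Cdc45 and the 4 GINS subunits bind the MCM ring to form the active helicase. Gins2 rose by 0.32 ± 0.08 (adjusted p = 0.00857, lost with 1 probe set per gene) and Gins3 by 0.29 ± 0.06 (adjusted p = 0.0022) late against early. The ratio of Gins3 was 1.107 at 0 h, 0.814 to 0.9545 in the early window and 1.055 to 1.126 in the late window. Its late arrays thus lay around its 0 h array. Cdc45 and Gins1 changed by 0.18 ± 0.06 and 0.25 ± 0.09 and narrowly missed (adjusted p = 0.0563 and 0.0559), and both rose from middle to late, by 0.24 ± 0.06 and 0.31 ± 0.09 (adjusted p = 0.023 and 0.0324). Of the 2 probe sets of each gene, only 1 passed from middle to late, at 0.45 for Cdc45 and 0.48 for Gins1. The other changed by 0.02 for Cdc45 and 0.13 for Gins1, and that of Gins1 may have been scaled otherwise. Gins4 changed least, by 0.02 ± 0.06 late against early. It fell in the middle window by 0.19 on the log2 scale (SE 0.06, adjusted p = 0.0355). That call is lost without any 1 of 6 early or middle arrays, with 1 probe set per gene, and after centring or quantile normalization. Gins4 has only 1 probe set, so with 1 probe set per gene only the limma estimate of spread and the adjustment over all genes differed.

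Of the 6 subunits of the origin recognition complex, 5 rose late against early, and 3 of them had already risen in the middle window. Orc2 had a ratio of 0.604 at 0 h, 0.570, 0.6295, 0.6805 and 0.797 from 0.5 to 2.0 h, 0.887, 0.950, 1.00 and 1.09 from 2.5 to 4.0 h, and 1.22, 1.20, 1.33 and 1.16 from 4.5 to 6.0 h. The windows do not overlap, and from 1.0 to 4.5 h every array was above the one before it. Orc2 rose by 0.89 ± 0.09 late against early (adjusted p = 2.78e-05), 1.85-fold, and by 0.56 ± 0.09 in the middle window (adjusted p = 0.00109).

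Orc5 had a ratio of 0.954 at 0 h, 0.801, 0.746, 0.742 and 0.658 from 0.5 to 2.0 h, 0.760, 0.851, 1.05 and 1.00 from 2.5 to 4.0 h, and 1.32, 1.245, 1.23 and 1.26 from 4.5 to 6.0 h. It was lowest at 2.0 h, highest at 4.5 h, and level within the late window. It rose by 0.78 ± 0.09 late against early (adjusted p = 4.85e-05) and by 0.30 ± 0.09 in the middle window (adjusted p = 0.0271). Orc1, an ATPase subunit of the complex, rose by 0.33 ± 0.07 late against early (adjusted p = 0.00287) and by 0.24 ± 0.07 in the middle window (adjusted p = 0.0215), and its change from middle to late, 0.09 ± 0.07, did not pass. The middle-window calls of Orc1 and Orc5 are lost without the 2.0, 3.5 or 4.0 h array, and that of Orc5 also without the 1.0 h array.

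Orc6 had a ratio of 0.587 at 0 h, 0.678, 0.890, 0.961 and 0.879 from 0.5 to 2.0 h, 0.788, 1.00, 0.939 and 1.01 from 2.5 to 4.0 h, and 1.11, 1.015, 1.13 and 1.31 from 4.5 to 6.0 h. It was lowest in the starved cells, and its lowest late array lay just above its highest middle array. Orc6 rose by 0.43 ± 0.11 late against early (adjusted p = 0.0122), and Orc4, which was also lowest at 0 h, at 0.731, rose by 0.33 ± 0.07 (adjusted p = 0.00349). Orc3 passed in none of the 3 window comparisons, with a late minus early change of 0.09 ± 0.05.

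The proteins that coat single-stranded DNA at the fork form replication protein A, and the genes of its 3 subunits parted. Rpa2 had a ratio of 0.765 at 0 h, 0.828, 0.986, 0.9345 and 0.838 from 0.5 to 2.0 h, 0.729, 0.807, 1.01 and 1.09 from 2.5 to 4.0 h, and 1.48, 1.59, 2.03 and 2.32 from 4.5 to 6.0 h. The late arrays lay above all others. Rpa2 rose by 1.03 ± 0.14 late against early (adjusted p = 0.000179), 2.04-fold, the largest change of the 41 genes, and its 6.0 h array was 3.03 times its 0 h array. The large subunit gene Rpa1 rose by 0.31 ± 0.075 (adjusted p = 0.00871). The small subunit gene Rpa3 passed in none of the 3 window comparisons and changed by -0.10 ± 0.10 late against early, with a ratio of 0.817 at 5.5 h between 0.992 at 5.0 h and 1.18 at 6.0 h.

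Of the genes that finish the lagging strand, Fen1, the nuclease that trims primer flaps, had a ratio of 0.762 at 0 h, 1.01, 0.933, 0.890 and 0.909 from 0.5 to 2.0 h, 0.809, 0.914, 0.845 and 0.913 from 2.5 to 4.0 h, and 1.23, 1.22, 1.42 and 1.66 from 4.5 to 6.0 h. The late arrays lay above all others. Fen1 rose by 0.55 ± 0.09 late against early (adjusted p = 0.000425). Lig1, the ligase that seals the nicks, did not pass (0.12 ± 0.08), and rose from middle to late by 0.30 ± 0.08 (adjusted p = 0.021).

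**Figure D4:**
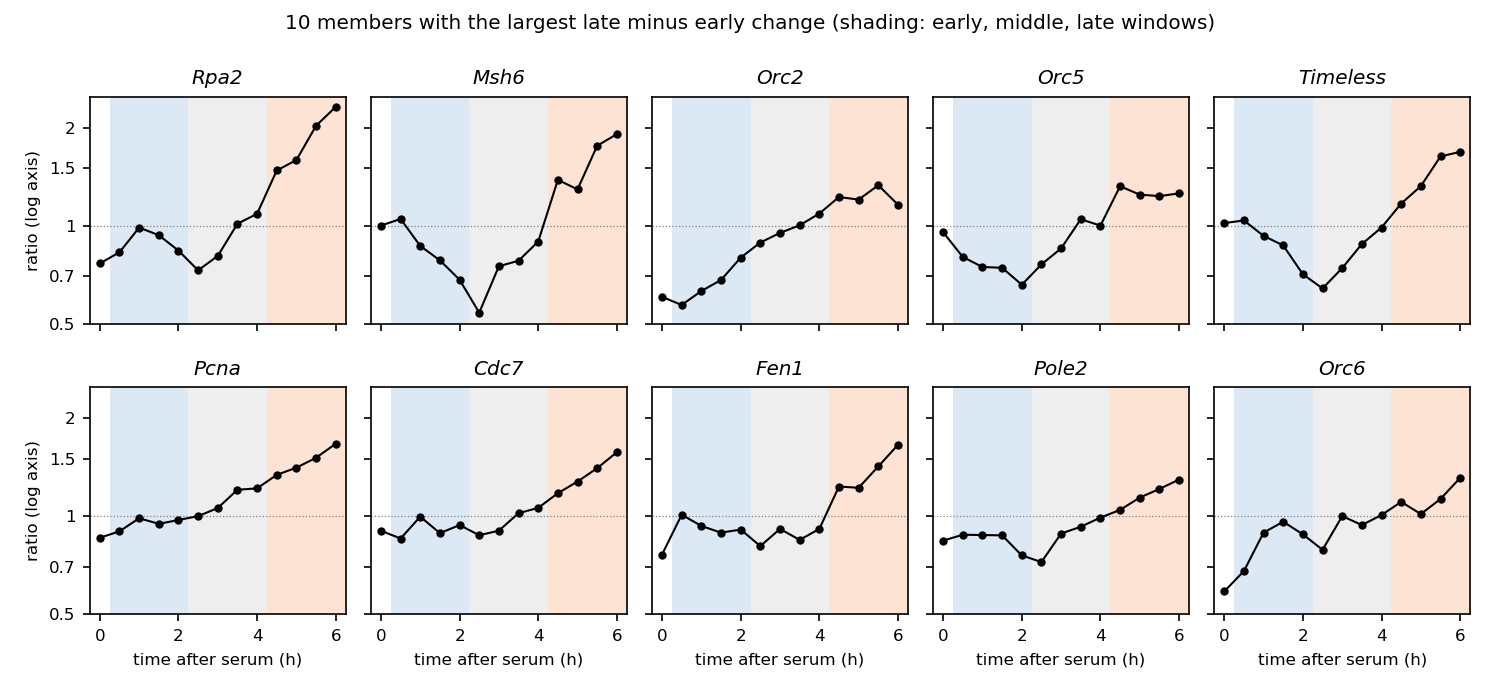
Ratio (log axis) against hours after return to serum, 1 array per point, for the 10 replication genes with the largest change late minus early; blue, grey and orange shading marks the early, middle and late windows, and the dotted line is a ratio of 1. Rpa2 ends at 2.32, Orc2 climbs from 0.5 h and Orc5 levels off from 4.5 h, while Msh6 and Timeless fall to 0.540 and 0.641 at 2.5 h before they rise.

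The genes that repair, methylate and repackage the copied DNA all rose from middle to late, 5 of 5, and 2 of 5 rose late against early. Msh6, a DNA mismatch repair gene, had a ratio of 1.00 at 0 h, 1.05, 0.866, 0.782 and 0.682 from 0.5 to 2.0 h, 0.540, 0.750, 0.780 and 0.893 from 2.5 to 4.0 h, and 1.38, 1.29, 1.76 and 1.91 from 4.5 to 6.0 h. It was lower on each array from 1.0 h to its low at 2.5 h, and its 6.0 h array was 3.54 times that low. The change late against early was 0.91 ± 0.16 (adjusted p = 0.00107), and its promoter is one of those printed with an E2F-type word. Chaf1b, a subunit of the complex that places histones on new DNA, rose by 0.33 ± 0.09 (adjusted p = 0.0174). That call is lost without the 5.5 or the 6.0 h array, and its 2 probe sets changed by 0.59 and 0.06.

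Dnmt1, which copies DNA methylation to the new strand, and Uhrf1, which guides it to half-methylated sites, were both low in the middle window. Dnmt1 fell in the middle window by 0.50 on the log2 scale (SE 0.11, adjusted p = 0.00645), rose from there by 0.54 ± 0.11 (adjusted p = 0.00801) and stood at 0.04 ± 0.11 late against early. With 1 probe set per gene, neither its fall nor its rise passed. Uhrf1 fell in the middle window by 0.43 on the log2 scale (SE 0.15, adjusted p = 0.0475), a call lost without any 1 of 8 arrays, each of the 4 early arrays among them, and after centring each array on its median. It rose by 0.85 ± 0.15 (adjusted p = 0.00321) from middle to late. Its late minus early change of 0.43 ± 0.15 narrowly missed (adjusted p = 0.0513). Slbp, which binds the stem-loop of histone mRNAs, rose from middle to late by 0.23 ± 0.06 (adjusted p = 0.0219). Of its 3 probe sets only 1 passed there (0.64 ± 0.10, adjusted p = 0.00204), and the others changed by 0.05 and 0.001. The gene's call is also lost with 1 probe set per gene, with the median over probe sets, and without the 3.0 h array. Late against early Slbp did not pass (0.09 ± 0.06). The same single probe set did (0.31 ± 0.10, adjusted p = 0.0467), and the others, at -0.17 and 0.11, did not.

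Both genes of the fork protection complex, which steadies stalled forks, rose late against early. Timeless had a ratio of 1.02 at 0 h, 1.04, 0.930, 0.869 and 0.709 from 0.5 to 2.0 h, 0.641, 0.7405, 0.878 and 0.986 from 2.5 to 4.0 h, and 1.17, 1.32, 1.63 and 1.685 from 4.5 to 6.0 h. It was lower on each array from 1.0 to 2.5 h and higher on each after that, and the late arrays lay above all others. Timeless rose by 0.71 ± 0.15 (adjusted p = 0.00304) and its partner Tipin by 0.40 ± 0.08 (adjusted p = 0.00295).

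**Figure D5:**
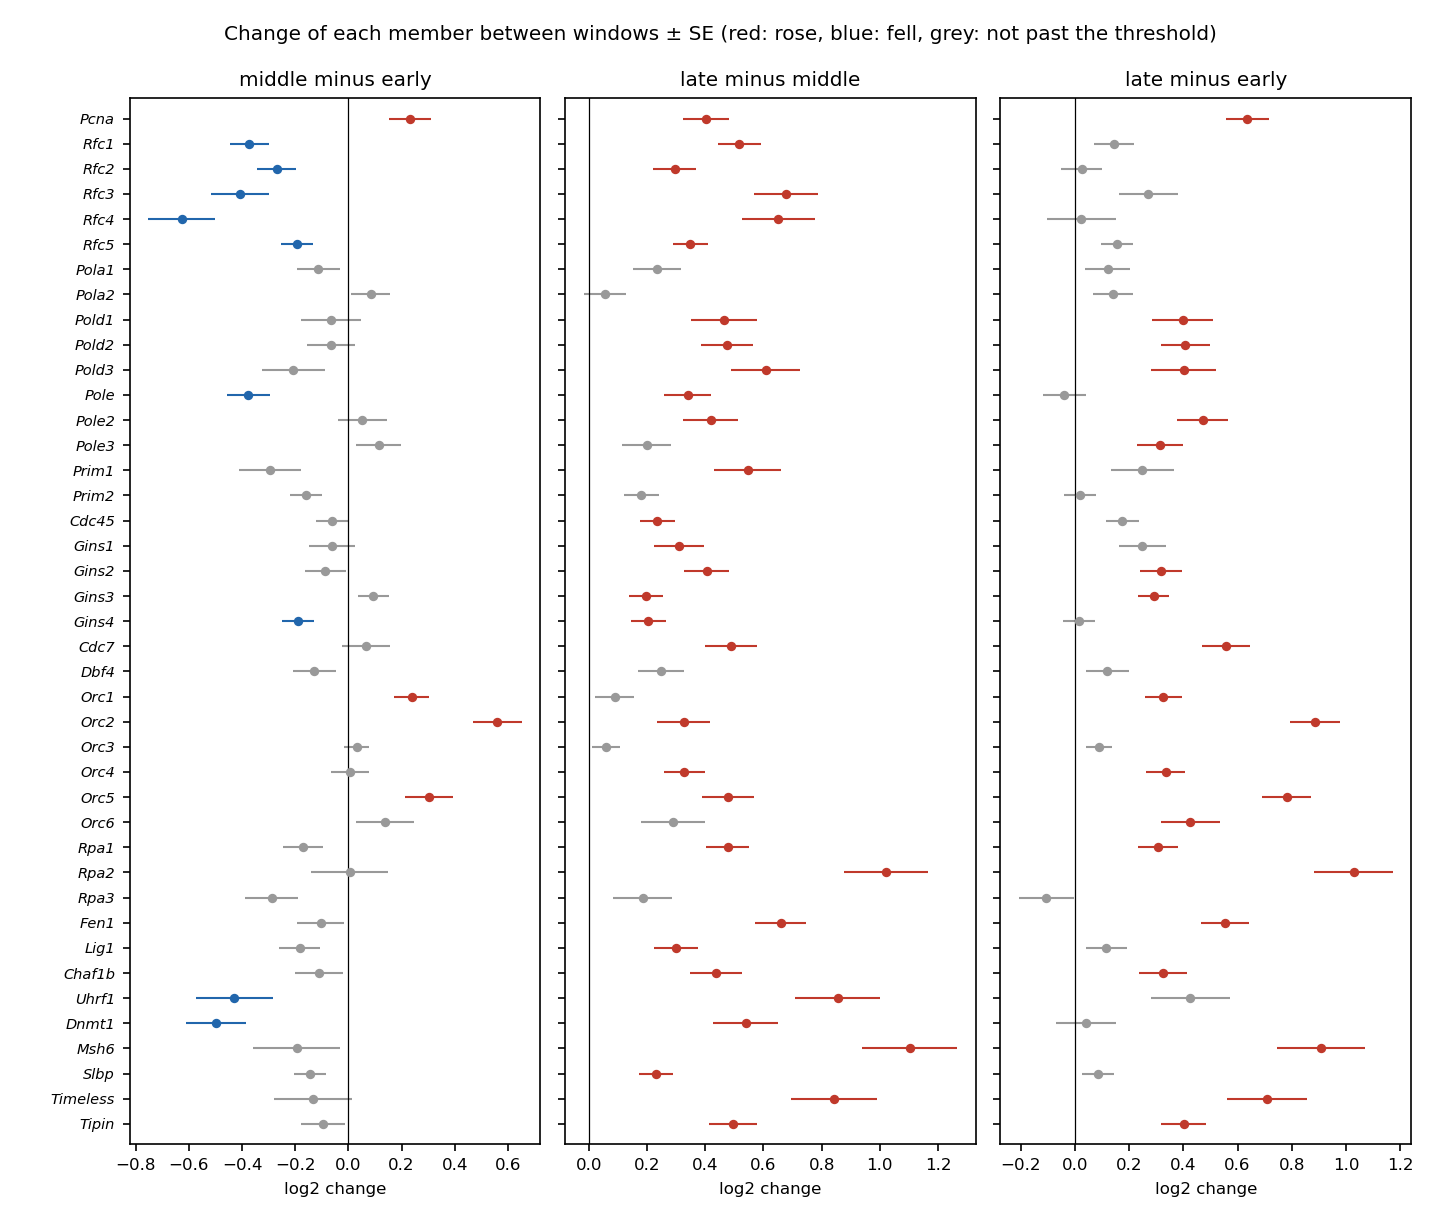
Change of each of the 41 genes on the log2 scale (points) with its SE (bars) for middle minus early (left), late minus middle (centre) and late minus early (right); red points rose, blue points fell and grey points did not pass the threshold. The 5 loader genes, Pole, Gins4, Uhrf1 and Dnmt1 are blue on the left, and all points of the centre panel lie above 0.

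The time of the rise was read array by array. For each of the 21 genes that rose late against early, the time was read from which every later array stayed beyond the midpoint of the early and late means. That time was 3.0 h for Orc1 and Orc2, 3.5 h for Orc5, Pcna and Pole3, and 4.0 h for Orc6. It was 4.5 h for 13 genes, among them Rpa2, Msh6, Cdc7, Fen1 and Timeless, and 5.0 h for Chaf1b and Pold3. Of the 6 genes at 4.0 h or before, 4 belong to the origin recognition complex. These times describe single arrays 0.5 h apart and carry no test.

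Several genes are read by more than 1 probe set, and 30 of the 41 allow a comparison. Late minus early, all probe sets of a gene had the same sign in 22 of the 30, and they lay over 0.5 apart in 3, Cdc7, Chaf1b and Pole2 (0.87 and 0.07). The Pole2 probe set with the change of 0.07 may have been scaled otherwise. Fen1 had changes of 0.79 and 0.32, both past the threshold on their own, as had Timeless with 0.95 and 0.47, and Orc1 had 0.56 and 0.10. Late minus middle, the sign was shared in 27 of the 30, and 10 lay over 0.5 apart. No gene had probe sets past the threshold in opposite directions.

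Against the starved cells, the early window showed little change in these genes. In limma 0 of the 41 rose (background 1.46% of all genes) and 0 fell (background 1.81%), with a median change of 0.01. At an unadjusted p under 0.05, 6 of the 41 passed, against 19.9% of all genes. The largest changes were 0.53 ± 0.17 for Orc6 (adjusted p = 0.11), 0.41 ± 0.13 for Pole (adjusted p = 0.0933), -0.38 ± 0.14 for Orc5 (adjusted p = 0.157) and -0.32 ± 0.09 for Gins3 (adjusted p = 0.0733). This comparison rests on a single 0 h array, which was assumed to vary like the others.

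Read as a smooth course over all 13 arrays, a spline fit in limma found change in 37 of the 41 genes (background 38.0% of all genes). The 4 that did not pass were Pola2, Prim2, Orc3 and Rpa3. The study's question of oscillation was tested as a 2 h rhythm on top of a smooth trend, 2 h being the period of the mouse segmentation clock. In limma 0 of the 41 genes passed (background 0% of all genes), with 2 of the 41 and 721 of all genes at an unadjusted p under 0.05. The limma F test gave unadjusted p = 0.0383 for Pold1 and 0.0463 for Uhrf1, each with a Benjamini-Hochberg adjusted p of 0.998.

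Neighbouring parts of the cell cycle programme were read from lists of genes outside the 41. Of 28 other fork genes, 12 rose late against early and 1 fell: Wdhd1, which couples polymerase alpha to the helicase, by 0.61 ± 0.10 and the checkpoint kinase gene Chek1 by 0.425 ± 0.08, while Top2a, which untangles DNA, changed by -0.29 ± 0.08. Of 10 genes listed for licensing, the step in which the helicase is loaded at origins, 9 rose, led by Cdc6 (1.69 ± 0.21) and Cdt1 (0.94 ± 0.10). Of 7 nucleotide supply and uracil repair genes 4 rose, led by Dctd (1.87 ± 0.12) and Ung (1.84 ± 0.20). No difference between these lists and the 41 replication genes was tested. Of 10 G1/S regulators 4 rose and 2 fell: cyclin E2 (Ccne2, 1.28 ± 0.21) and Cdc25a (0.47 ± 0.08) rose, and cyclin A2 (Ccna2, -0.44 ± 0.09) and Rb1 (-0.19 ± 0.05) fell. Of 9 mitotic genes 0 rose and 6 fell, led by Ccnb2 (-0.82 ± 0.08) and Cenpe (-0.64 ± 0.11).

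Markers of muscle differentiation moved in the same direction late against early: 9 of 10 rose, with changes between 0.22 for Ckm and 0.57 for Tnnc2, and Myh8 did not pass (0.19 ± 0.13). Late against middle 6 of these 10 rose, with a median change of 0.32 over the 10 and all 10 changes above 0. Of 9 myoblast markers 1 rose late against early, of 7 fibroblast markers none rose and 3 fell, and of 9 blood and endothelium markers none passed. Late against middle, 1 of the 9 myoblast markers rose, and none of the fibroblast or the blood and endothelium markers passed. The ratios allow no summed level of these markers, and their part in the replication results was not tested.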

How the data were processed

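Per the labels' protocols, biotin-labelled target from total RNA was hybridised to 1 Affymetrix mouse array per time point. The deposited values are linear ratios, and RMA was used per the submitters' processing notes, with no version stated; the way the ratios were formed is not given in the sources used. For 4608 of the 45037 probe sets (5 of the 83 of the replication genes), a ratio of 1 lay outside the middle of the sorted values. The middle was the range where a median could fall if taken over 15 arrays, an assumption. These probe sets may have been scaled otherwise. Among the replication genes they were 1 probe set each of Dbf4, Gins1, Orc4, Pole2 and Slbp, and the means of these genes include them. No test includes the 64 array controls. Of the probe sets, 34945 had 1 gene symbol, 932 several and 9160 none, and only those with 1 were named.

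Ratios were turned into log2 values, averaged over the probe sets of a gene, and fitted as window means over all 13 arrays with limma 3.58.1 (lmFit, eBayes, two-sided) in R 4.3.3, with Benjamini-Hochberg adjustment over 18193 genes and a threshold of 0.05. Smooth courses used a natural cubic spline with 4 degrees of freedom, and oscillation a cosine and sine of 2 h added to a spline of 3 degrees of freedom. The models were tested on simulated data. Python 3.11.15 was used for tables (pandas 2.3.3, numpy 2.4.6) and plots (matplotlib 3.10.9).

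Any of the 41 genes could be named. Values on every array are given for the 10 with the largest change late minus early, and, outside this rule, for Rfc4. Per other list, up to 2 genes with the largest rise and 2 with the largest fall were named. The genes, lists and tests were chosen with earlier results of these data known. Alternatives covered normalization, centring, the choice of probe sets, the variance model, windows, a minimum change, the curve, the period and each array left out. No batch was fitted, as the labels hold no array dates.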

Additional observations from a re-analysis of the deposited data

Results flagged for a closer look

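Within the windows, the highest or lowest of 4 arrays was tested for lying apart from the other 3, in 123 groups of gene and window. Chance flags about 1 in 20 such groups, and 3 were found. Rfc1 had a ratio of 0.846 at 4.0 h, above the 0.739 to 0.750 of the other middle arrays. Pole2 had 0.757 at 2.0 h, under the 0.873 to 0.877 of the other early arrays. Chaf1b had 1.095 at 1.0 h, above the 0.948 to 0.969 of the other early arrays.

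Outside the genes tested, the control probe set for the 5′ end of 18S ribosomal RNA stood at 5.24 on the 6.0 h array, against 0.849 on the 0 h array.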

How the results depend on the processing

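No direction of a called result was reversed under any alternative run. Late against early, 0 of the 41 genes passed a minimum log2 change of 0.5, where 46 of all genes did in the higher direction. With the late window of the 4.5 h array alone, an alternative chosen after the data were examined, 4 passed and the median change was 0.12. Late against middle, 0 of the 41 passed either of these alternatives (0 of all genes higher in both), and the median with the 4.5 h array alone was 0.28. In the middle window against early, 2 genes rose and 4 fell with 1 probe set per gene (6.975% and 12.62% of all genes). With the minimum change 0 rose and 0 fell (0% and 0.066% of all genes). With an early window of 0.5 to 1.5 h 1 rose (8.01% of all genes). Early against 0 h, 1 fell with 1 probe set per gene (1.94% of all genes), and 1 rose and 1 fell with the fit on single probe sets (share of all genes not given). A straight line in time called 17 genes (share of all genes not given) in place of the smooth course's 37 (38.0% of all genes).

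With each array left out in turn, 17 to 24 genes rose late against early (all genes 9.39% to 11.9%), with a median between 0.24 and 0.34. Late against middle 23 to 33 rose (all genes 5.25% to 11.7%), with a median between 0.345 and 0.45. In the middle window 1 to 4 rose (all genes 4.82% to 8.38%) and 6 to 11 fell (all genes 10.8% to 14.5%). The median there lay between -0.16 and -0.055. The count of 4 dropped to 2 without the 1.0 h array and to 1, Orc2, without the 2.0, 3.5 or 4.0 h array. Early against 0 h, 0 to 2 rose and 0 to 1 fell, with a median between -0.01 and 0.05. The 2 and the 1 came from leaving out the 0.5 h array (3.72% and 4.15% of all genes). The smooth course was called in 33 to 37 genes, and the oscillation in 0 without the 0 h array. The shares of all genes in these curve runs are not given. Quantile normalization left 22 genes higher late against early (11.96% of all genes), and centring each array left 21 (11.31%). No scaling changed the sign of a called gene.

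No paired analysis was possible because the labels give 1 array per time point and no replicate numbers. Ratios without levels gave no signal over background, so dim probe sets could not be set aside. Only 1 time course was sampled, and a rise that falls between arrays 0.5 h apart is not resolved.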
